A study of Mus musculus with 38 samples.

Results

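The stress effect that female and male mice have in common was examined in the adBNST, the anterodorsal portion of the bed nucleus that lies along the stria terminalis, as the mean of the effect in females and the effect in males. A stress effect is the log2 ratio of stressed over control libraries, and its average gives both sexes the same weight. All 38 of 38 libraries entered the fit, and the genes described are those whose effect had the same direction in both sexes, 6060 of 16309 tested. The groups, all of wild-type (WT) mice, were 9 libraries of stressed females, 10 of control females, 9 of stressed males and 10 of control males. Stressed mice went through 6 weeks of randomised mild stressors, among them disturbed lighting and bedding, cold, forced swimming, restraint, isolation and predator sounds. The labels give no age, and do not say whether each library is a different animal. The p-values therefore measure the spread between libraries.

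The adBNST is a small forebrain nucleus of mostly GABAergic neurons that links the amygdala and hippocampus to the hypothalamus and brainstem. It contains neurons that make corticotropin-releasing hormone and other peptides, and it takes part in anxiety-like behaviour and in the control of the hypothalamic-pituitary-adrenal axis. In that axis the hypothalamus and pituitary drive the release of glucocorticoids, which enter the brain, bind the glucocorticoid receptor and act on the transcription of target genes.

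Library totals were 14.57 to 35.32 M counts in stressed females, 18.11 to 33.77 in control females, 15.9 to 36.11 in stressed males and 9.064 to 84.84 in control males. A single count was therefore worth 0.0116 to 0.115 CPM (counts per 1 M counts), the unit of all levels below. Transcripts of 16 of 16 extended amygdala markers were tested, among them Gad2 for GABA synthesis at a mean of 991.4 CPM, and their sum lay between 3207 and 6792 CPM. Libraries are abbreviated as FS, FC, MS and MC, for stressed females, control females, stressed males and control males, with their number. FS1, FS2, FC1, FC6 and MC3 stood apart in marker sums: pan-neuronal markers summed to 13560 CPM in FS1 and 13890 in FC1, against medians of 9045 CPM in stressed females and 8980 in control females, and myelin markers to 27680 CPM in FS2, 25400 in FC6 and 23470 in MC3, the highest of their groups. MS5 stood apart in choroid plexus transcripts, which summed to 4989 CPM there, against a median of 410.9 CPM in stressed males.

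No gene passed the test for the averaged effect. EdgeR's quasi-likelihood test with Benjamini-Hochberg adjustment called 0 of 16309 genes (0%) at an adjusted p under 0.05, and every adjusted p was 1. DESeq2 and limma voom also called 0. At an unadjusted p under 0.05 edgeR had 239 genes (1.47%), 101 of them with a positive averaged effect (0.619%) and 138 with a negative one (0.846%). Of the 239, 231 had the same direction in both sexes (1.42%) and 8 opposite directions (0.0491%), a split that the average itself favours. The count of 239 depended on the model, with 839 by voom, 792 with 2 surrogate variables, 732 with no filter on low counts, 629 with the library number as a block, 948 in libraries numbered from 6 and 396 without FS2. The same count was 308 (1.89%) for stress in females alone and 655 (4.02%) for stress in males alone, again with 0 genes passing in either. For the difference between the effects in males and females it was 736 (4.51%), and 0 passed.

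Genes with the same direction in both sexes were the smaller part of those tested. The effect was positive in both sexes for 2919 genes (17.9%) and negative in both for 3141 (19.3%), which makes 37.2% together, while 62.8% had opposite signs. The share was 42.9% without FS1, FS2, FC1, FC6 and MC3, and single libraries moved it from 29.6% (without FC6) to 50.4% (without FS1) and 52.4% (without FS2), and it was 49.6% by voom. Across genes the effects in females and males gave a Pearson r of -0.20 and a Spearman correlation of -0.29, as a description over 16309 genes from the same 38 libraries. This r was not stable in sign: it was 0.016 without FS1, 0.041 without FS2, 0.061 by voom, -0.0026 with no filter on low counts and 0.23 in libraries numbered from 6. Effects were small where they were shared. The smaller of the 2 effects had a median size of 0.04 among genes with the same direction, while the median standard error was 0.15 in females and 0.15 in males. Both effects reached 0.25 in the same direction for 290 of the 16309 genes tested. Among the 10530 genes with a mean of at least 10 CPM, 10 did so in the same direction and 73 in opposite directions. The 10 include the ribosomal RNA gene Rn45s, with -0.29 in females and -0.51 in males (unadjusted p = 0.40 for the average by edgeR).

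**Figure D1:**
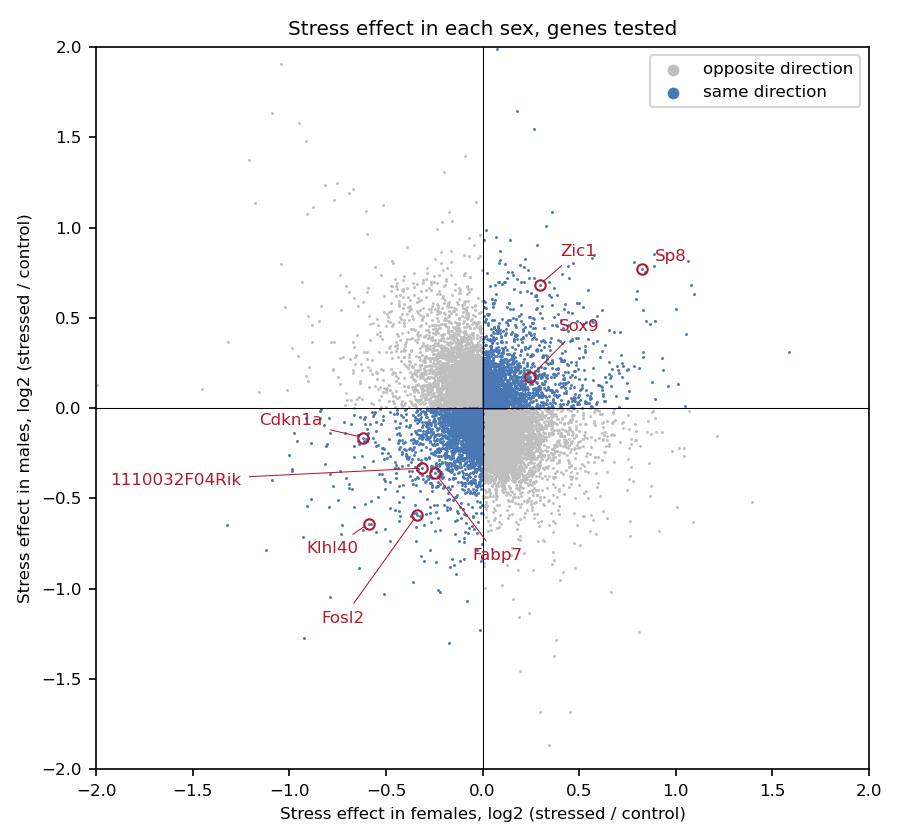
Stress effect in females (x axis) and in males (y axis), both as log2 of stressed over control, for each gene tested, with genes of the same direction in blue, genes of opposite direction in grey, and 8 genes lying beyond the axes at 2. Named genes are circled; most blue points lie close to 0 in at least one sex, and Klhl40 and Sp8 lie far from 0 in both.

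In 4 genes the stress effect had an unadjusted p under 0.05 in each sex with the same direction (0.0245%), and in 13 with opposite directions (0.0797%). The 4 were Fabp7, Klhl40 and 1110032F04Rik with negative effects, and Sp8 with positive ones. Without FS1, FS2, FC1, FC6 and MC3 the same count was 4, and 0 of these genes were among them.

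Fabp7 encodes the brain fatty acid-binding protein of astrocytes and neural progenitors, which carries long-chain fatty acids in the cell. It lies on chromosome 10 (chr10:57784923-57788450, GRCm38.p6). Of the 4 genes, only Fabp7 had a promoter sequence whose 250 bases lay wholly outside the RefSeq gene. The 250 bases before its start (chr10:57784673-57784922, plus strand, RefSeq) are shown, with capitals marking the 1 match among the motifs searched.
Fabp7 promoter: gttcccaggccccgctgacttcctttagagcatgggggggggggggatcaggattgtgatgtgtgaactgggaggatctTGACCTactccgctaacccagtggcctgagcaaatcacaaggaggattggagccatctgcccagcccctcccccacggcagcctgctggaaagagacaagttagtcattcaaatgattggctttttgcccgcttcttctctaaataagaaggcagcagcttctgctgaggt
The motifs were searched on both strands, and the match is the nuclear receptor half-site AGGTCA, read on the opposite strand and starting at -171 from the gene's start. It occurs in 14% of 32851 promoters of this length. The other motifs had no match in this window: the glucocorticoid receptor half-site AGAACA (16.1% of promoters), its full site, which is AGAACA followed after 3 bases by TGTTCT and so contains the half-site (0.00913%), the cAMP response element TGACGTCA (1.55%) and the E-box CACGTG (6.02%).

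Fabp7 levels had a lowest, median and highest value of 15.8, 26.8 and 34.7 CPM in stressed females, against 25.2, 30.6 and 44.0 CPM in control females. In stressed males they were 21.2, 29.2 and 31.7 CPM, against 26.8, 33.6 and 45.9 CPM in control males. The ranges overlapped in both sexes, and 6 of 9 stressed females and 9 of 9 stressed males lay below the median of their controls. The averaged effect was -0.30 ± 0.085 (SE; unadjusted p = 0.00103, adjusted p = 1 by edgeR), made of -0.25 ± 0.12 in females and -0.36 ± 0.12 in males. The effects in males and females differed by -0.11 ± 0.17 (unadjusted p = 0.52).

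Klhl40, on chromosome 9 (chr9:121777499-121791200), encodes a kelch-like adaptor of ubiquitin ligases that is best known from skeletal muscle. It was rare: the lowest, median and highest levels were 0.157, 0.613 and 0.994 CPM in stressed females, against 0.547, 0.819 and 1.46 CPM in control females. Stressed males had 0.534, 0.680 and 0.983 CPM, against 0.513, 1.21 and 1.83 CPM in control males. Again 9 of 9 stressed males, and 7 of 9 stressed females, lay below the control median, with overlapping ranges. Its averaged effect was -0.62 ± 0.18 (unadjusted p = 0.00185), with -0.59 ± 0.26 in females and -0.64 ± 0.26 in males.

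1110032F04Rik, a protein-coding gene on chromosome 3 (chr3:68869586-68872163), showed the same arrangement at low levels. Stressed females had a lowest, median and highest level of 2.78, 3.90 and 5.90 CPM, against 3.04, 5.09 and 7.86 CPM in control females. In males the values were 2.86, 3.96 and 4.66 CPM under stress, against 3.58, 4.90 and 7.25 CPM in controls. Of the stressed libraries, 8 of 9 in females and 9 of 9 in males were below the median of their controls. The averaged effect was -0.32 ± 0.10 (unadjusted p = 0.00299), with -0.31 ± 0.14 in females and -0.33 ± 0.14 in males.

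Sp8, on chromosome 12 (chr12:118846288-118852578), encodes a zinc-finger transcription factor of developing forebrain interneurons. Its levels ran from 0.628 over 1.68 to 8.08 CPM in stressed females, against 0.875, 1.73 and 3.23 CPM in control females. In stressed males they ran from 0.757 over 2.72 to 5.29 CPM, against 0.573, 1.61 and 2.97 CPM in control males. A few stressed libraries were high while the medians in females were alike, and 4 of 9 stressed females and 6 of 9 stressed males exceeded the control median. The averaged effect was 0.80 ± 0.26 (unadjusted p = 0.00412), with 0.83 ± 0.37 in females and 0.77 ± 0.37 in males. It differed between library numbers, with 0.01 ± 0.32 in libraries numbered up to 5 and 1.36 ± 0.30 in those numbered from 6.

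**Figure D2:**
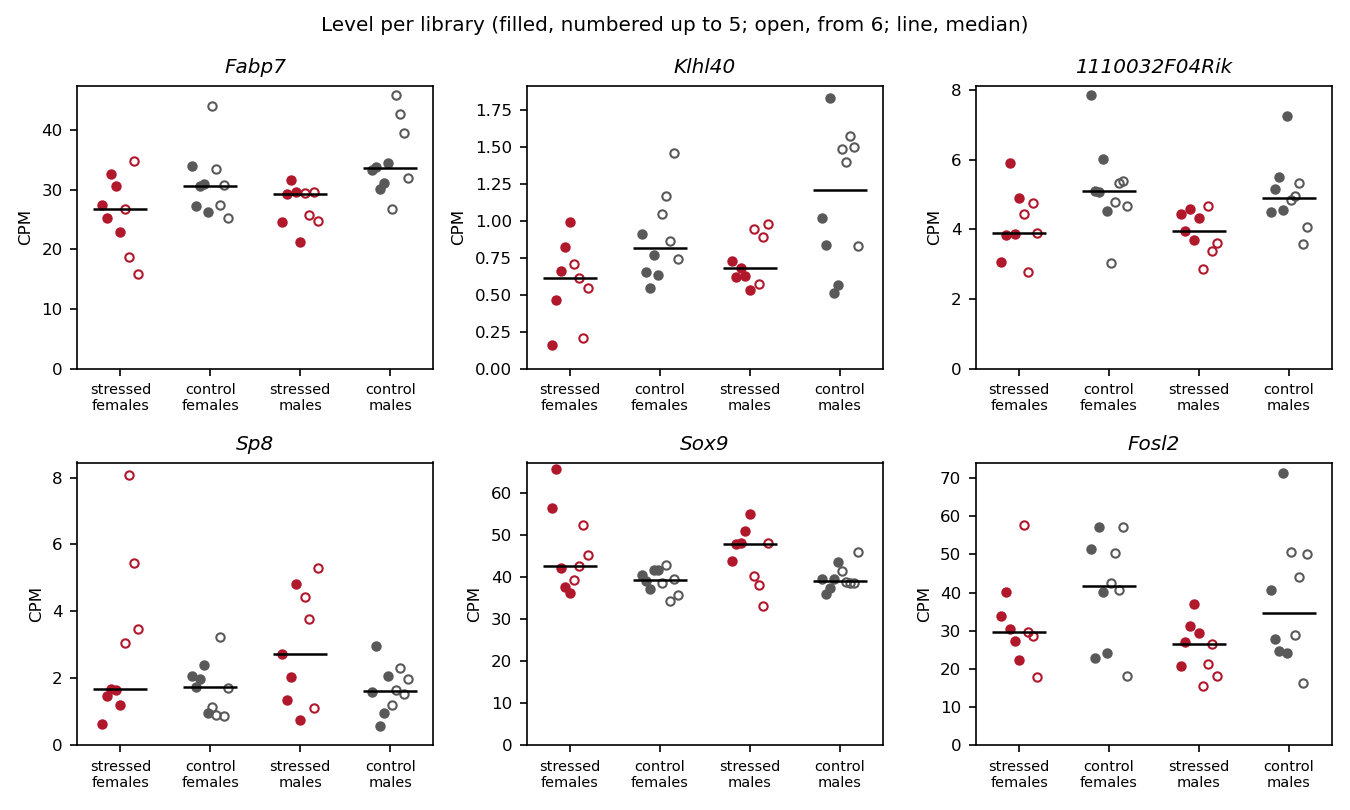
Level in CPM (y axis) of 6 genes in each library, by group, with filled points for libraries numbered up to 5, open points for those from 6, and a line at the group median. For Fabp7, Klhl40 and 1110032F04Rik all 9 stressed males lie below the control male median, and in every panel the stressed and control ranges overlap in both sexes.

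A wider view was taken of the genes with a common direction in both sexes, with 10 positive and 10 negative ones ranked by the p of their averaged effect. They mostly had low levels. Of these 20 genes, 13 had a mean under 3 CPM. The ranges of stressed and control libraries overlapped in both sexes for 20 of 20, and adjusted p was 1 for each.

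On the positive side, Sox9, which specifies astrocytes and other glia, had 36.1, 42.5 and 65.7 CPM (lowest, median, highest) in stressed females, against 34.2, 39.2 and 42.9 CPM in control females. In stressed males it had 33.2, 47.8 and 55.0 CPM, against 36.0, 39.2 and 45.9 CPM in control males. In each sex 7 of 9 stressed libraries exceeded the control median, and the upper end of the stressed range lay above all controls. The highest stressed females were FS2 (65.7 CPM) and FS1 (56.6 CPM), which stood apart in marker sums. The averaged effect of Sox9 was 0.21 ± 0.065 (unadjusted p = 0.00284), with 0.25 ± 0.09 in females and 0.17 ± 0.09 in males.

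Sox1, a factor of neural progenitors and of some forebrain neurons, had 42.2, 55.8 and 65.5 CPM in stressed females, against 33.2, 46.8 and 54.4 CPM in control females. Stressed males had 38.3, 50.8 and 57.5 CPM, against 37.1, 46.4 and 63.2 CPM in control males. In each sex 8 of 9 stressed libraries exceeded the control median, and the averaged effect was 0.20 ± 0.065 (unadjusted p = 0.00397). Sp5, a zinc-finger target of Wnt signalling, had an averaged effect of 0.95 ± 0.31, which was uneven between the sexes at 1.59 ± 0.43 in females and 0.31 ± 0.44 in males (unadjusted p = 0.047 for the difference by edgeR, with no adjusted p under 0.51 in that comparison). Its group medians were 0.473 CPM in stressed females, 0.209 in control females, 0.243 in stressed males and 0.188 in control males.

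Cybrd1, an iron reductase, reached 1.72, 2.36 and 6.99 CPM in stressed females, against 0.449, 1.58 and 2.40 CPM in control females, and all 9 stressed females exceeded the control median. In stressed males it had 1.22, 2.40 and 3.02 CPM, against 1.08, 1.99 and 2.91 CPM in control males. Its averaged effect of 0.57 ± 0.17 was thus mostly that of females (0.93 ± 0.25, against 0.21 ± 0.25 in males). The insulin-responsive glucose transporter Slc2a4 was spread more evenly, with 0.59 ± 0.24 in females and 0.37 ± 0.24 in males, and 7 of 9 stressed females and 9 of 9 stressed males above the control median. Gpr84, a receptor for medium-chain fatty acids on microglia and other immune cells, had an averaged effect of 0.71 ± 0.24, with 0.58 ± 0.35 in females and 0.85 ± 0.32 in males. Its median was 0.305 CPM in stressed females and 0.321 in control females. Above the control median lay 4 of 9 stressed females and 8 of 9 stressed males. Arhgef38, a guanine nucleotide exchange factor, had an averaged effect of 0.94 ± 0.30. Iqgap3, a scaffold protein of dividing cells, had 0.47 ± 0.16, of which females gave 0.89 ± 0.23 and males 0.05 ± 0.23.

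Ttr had the smallest p of all (unadjusted p = 0.000653), and 1 library set its value. Ttr encodes transthyretin, the thyroid hormone carrier made by the choroid plexus. Its median was 1.56 CPM in stressed females and 1.96 in control females, and 3.11 CPM in stressed males and 4.02 in control males, while MS5 had 2878 CPM. The averaged effect of 2.90 ± 0.78 became 0.48 ± 0.52 (unadjusted p = 0.37) without MS5.

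On the negative side, Fosl2, an AP-1 transcription factor that neuronal activity induces, had the most counts of the 10, at 17.8, 29.7 and 57.7 CPM in stressed females, against 18.2, 41.6 and 57.1 CPM in control females. Stressed males had 15.5, 26.4 and 36.9 CPM, against 16.4, 34.7 and 71.3 CPM in control males. Both stressed medians were the lower ones, with 8 of 9 stressed libraries in each sex below the control median, but the ranges nearly coincided in females. The averaged effect was -0.46 ± 0.17 (unadjusted p = 0.00785), with -0.34 ± 0.23 in females and -0.59 ± 0.24 in males.

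Ly6a, a surface antigen of brain endothelium, had 13.0, 14.5 and 18.6 CPM in stressed females, against 13.0, 19.97 and 25.02 CPM in control females. In males it had 9.92, 14.56 and 17.4 CPM under stress, against 10.8, 14.64 and 21.8 CPM in controls. All 9 stressed females lay below the control median while the male medians were almost equal, and the averaged effect was -0.24 ± 0.084. Klb, the co-receptor of fibroblast growth factor 21, had a median of 0.862 CPM in stressed females, 1.15 in control females, 0.663 in stressed males and 1.09 in control males, for an averaged effect of -0.50 ± 0.17. Fer1l5, a member of the ferlin family, had -0.20 ± 0.073, with -0.22 ± 0.10 in females and -0.19 ± 0.10 in males. The other genes of this side were the crystallin Crybb3 (-0.67 ± 0.21), the receptor gene P2ry10b (-0.99 ± 0.33), the tetraspan gene Tm4sf5 (-0.51 ± 0.18) and the mesothelin-like gene Mslnl (-0.96 ± 0.34), all with medians under 1.5 CPM in every group.

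Curated gene lists were described by how many members had the same direction in both sexes, beside the shares over all genes tested (17.9% positive, 19.3% negative, 62.8% opposite). No member of any list passed, so the counts are of directions and not of calls. The median averaged effect over all genes tested was -0.0033. Members are named with their values where their unadjusted p for the average was under 0.1, or as the first of a list, and their adjusted p was 1.

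The stress axis list, of peptides and receptors of the hypothalamic-pituitary-adrenal axis, had 3 members positive in both sexes, 8 negative in both and 7 opposite, with a median averaged effect of -0.06 (-0.033 without FC1 and -0.034 without MS5). This median was -0.017 in libraries numbered up to 5, -0.0018 in those from 6 and -0.0060 by voom. Crhr1, the main receptor of corticotropin-releasing hormone, had 6.94, 8.85 and 15.3 CPM in stressed females, against 7.33, 10.3 and 14.9 CPM in control females. Among stressed males it had 5.89, 9.01 and 16.8 CPM, against 7.05, 11.03 and 17.5 CPM in control males. The groups overlapped almost fully, with 8 of 9 stressed females and 6 of 9 stressed males below the control median and an averaged effect of -0.23 ± 0.12 (unadjusted p = 0.0677).

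The ligand gene Crh had 17.0, 21.998 and 23.8 CPM in stressed females, against 13.6, 23.1 and 39.3 CPM in control females. Stressed males had 4.72, 20.1 and 26.7 CPM, against 16.3, 21.5 and 34.7 CPM in control males. The medians were close in both sexes, and the averaged effect of -0.19 ± 0.14 turned sign with the library numbers, at 0.14 ± 0.12 up to 5 and -0.59 ± 0.23 from 6. Mc4r, the melanocortin receptor of appetite and stress circuits, had an averaged effect of -0.16 ± 0.086.

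Nr3c1, the glucocorticoid receptor, had 95.1, 133 and 147 CPM in stressed females, against 83.4, 122 and 153 CPM in control females. In stressed males it had 109, 129 and 150 CPM, against 84.2, 117 and 161 CPM in control males. Its stressed medians were the higher ones in both sexes, by less than the spread between libraries, with an averaged effect of 0.11 ± 0.079 (unadjusted p = 0.183). Its target and co-chaperone Fkbp5 had medians of 36.5 CPM in stressed females, 36.5 in control females, 40.6 in stressed males and 39.7 in control males, for -0.08 ± 0.088.

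Among genes that glucocorticoids induce, 2 were positive in both sexes, 10 negative in both and 15 opposite, with a median of -0.07, which single libraries moved between -0.11 (without FS1) and -0.045 (without FC7). Cdkn1a, the cell-cycle inhibitor p21, had 5.94, 11.8 and 15.6 CPM in stressed females, against 7.75, 16.2 and 28.3 CPM in control females. Stressed males had 7.49, 9.26 and 10.7 CPM, against 6.59, 10.4 and 15.0 CPM in control males. All 9 stressed females and 7 of 9 stressed males lay below the control median, and the averaged effect was -0.39 ± 0.14 (unadjusted p = 0.00962). It came mostly from females, at -0.62 ± 0.20, against -0.16 ± 0.20 in males. The female value came mostly from high library numbers, with -1.15 from 6 on against -0.11 for lower numbers. Males had -0.18 and -0.14 in the same order. Plekhf1, an endosomal adaptor, had -0.44 ± 0.24, and Nfkbia, the inhibitor of NF-kappaB, had -0.21 ± 0.12. Libraries with numbers up to 5 gave a list median of 0.07 and those from 6 gave -0.22, so its direction was not shared by the 2 sets.

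Immediate early genes, transcribed within minutes of neuronal activity, had 0 members positive in both sexes, 11 negative in both and 17 opposite, with a median of -0.10. In females the list's median was -0.0012 and in males -0.23. After Fosl2 came the orphan nuclear receptor gene Nr4a3 at -0.34 ± 0.18, with medians of 30.6 CPM in stressed females, 36.1 in control females, 22.1 in stressed males and 34.3 in control males. The neuron-specific factor Npas4 had -0.24 ± 0.14 and Fosb, which accumulates under repeated stimulation, -0.31 ± 0.18. Fos itself had 0.04 ± 0.35 in females and -0.68 ± 0.36 in males, and the positive sign in females rested on FS6, at 56.4 CPM: without it the values were -0.36 ± 0.33 in females and -0.67 in males.

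Circadian clock genes had 8 members positive in both sexes, 2 negative in both and 10 opposite, with a median of 0.04, but the sets of numbers differed in sign, at 0.092 up to 5 and -0.029 from 6. The 2 negative members were Arntl and Nfil3. Arntl encodes BMAL1, the activator of the clock, and had 27.5, 34.5 and 46.4 CPM in stressed females, against 35.8, 43.6 and 48.8 CPM in control females. In stressed males it had 34.7, 38.1 and 41.5 CPM, against 22.6, 42.2 and 60.6 CPM in control males. Below the control median lay 8 of 9 stressed females and 9 of 9 stressed males, and the averaged effect was -0.17 ± 0.081 (unadjusted p = 0.0379).

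Per3, a period gene that the BMAL1 complex activates, lay on the other side. It had 52.7, 67.5 and 96.1 CPM in stressed females, against 47.0, 66.1 and 81.6 CPM in control females, and 68.4, 74.8 and 83.3 CPM in stressed males, against 43.2, 64.6 and 83.2 CPM in control males. All 9 stressed males and 6 of 9 stressed females were above the control median, with an averaged effect of 0.18 ± 0.079 (unadjusted p = 0.0306). Bhlhe41, a repressor of the clock, had 0.11 ± 0.061, and Nfil3, a repressor of clock outputs, had -0.25 ± 0.098, nearly all from females (-0.46 ± 0.14, against -0.03 ± 0.14 in males). The labels do not give the hour of dissection, and stressors that altered the light cycle were part of the stress, so a difference in clock time cannot be told apart from other effects of stress.

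Neuropeptide genes had 0 members positive in both sexes, 11 negative in both and 14 opposite, with a median of -0.14. Cartpt, the precursor of the peptide CART, had 19.3, 22.8 and 33.9 CPM in stressed females, against 19.0, 25.7 and 35.1 CPM in control females. Among stressed males it had 14.6, 24.5 and 37.9 CPM, against 20.5, 33.0 and 53.7 CPM in control males. The groups overlapped, and the averaged effect of -0.26 ± 0.12 came mainly from males (-0.45 ± 0.17, against -0.08 ± 0.17 in females).

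Galanin (Gal) had an averaged effect of -0.33 ± 0.16, with -0.39 ± 0.23 in females and -0.28 ± 0.22 in males. The dynorphin precursor Pdyn had medians of 157 CPM in stressed females, 168 in control females, 143 in stressed males and 159 in control males, with -0.14 ± 0.073 (unadjusted p = 0.0539) and 9 of 9 stressed males below the control median. Npy, the neuropeptide Y gene, had no common direction, with 0.25 ± 0.28 in females and -0.30 ± 0.28 in males. Of 31 neuropeptide receptors, 6 were positive in both sexes and 9 negative, with Crhr1 and Mc4r among the negative ones.

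Of 11 KCNQ, HCN and T-type calcium channel genes, 1 was positive in both sexes and 2 were negative. The KCNQ subunits carry the M-current, a potassium current that holds neurons below threshold. Kcnq5 had 75.8, 110 and 165 CPM in stressed females, against 82.5, 106 and 148 CPM in control females. Stressed males had 65.7, 129 and 134 CPM, against 60.4, 98.2 and 174 CPM in control males. The groups overlapped in both sexes, with an averaged effect of 0.05 ± 0.12, and Kcnq3 had opposite signs in females (-0.08 ± 0.19) and males (0.05 ± 0.19).

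Among 42 other potassium channels 4 were positive in both sexes and 11 negative, with the leak channel Kcnk3 first (-0.16 ± 0.096, and -0.098 without MC3). Genes of GABA synthesis, transport and receptors had 9 members positive in both sexes, 0 negative and 14 opposite, with Gabrg3, a receptor subunit, first (0.11 ± 0.094). The GABA list had a median of 0.05, but -0.012 with numbers up to 5 and 0.14 from 6, and single libraries moved it between 0.028 (without FC6) and 0.069 (without MC5). Glutamate receptors and transporters had 6 positive and 3 negative of 28, with the NMDA receptor subunit Grin2c first (-0.12 ± 0.097). Among 29 monoamine and acetylcholine receptors 5 were positive and 4 negative, and the dopamine receptor Drd5 had -0.33 ± 0.16 (unadjusted p = 0.0433). Postsynaptic scaffolds had 4 positive and 3 negative of 26, led by Dlgap1 (0.07 ± 0.051), and neurotrophins with their receptors 1 and 2 of 9, led by Ntf3 (0.50 ± 0.30). Of 9 genes for gonadal steroid receptors and aromatase, 3 were positive and 1 was negative, the aromatase gene Cyp19a1 (-0.24 ± 0.25, and -0.085 without FC10).

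Genes of translation and respiration seldom shared a direction. Of 79 cytosolic ribosomal protein genes 1 was positive in both sexes, 3 were negative and 75 opposite, with list medians of 0.13 in females and -0.34 in males. Of 73 nuclear-encoded subunits of oxidative phosphorylation 1 was positive, 11 were negative and 61 opposite, with medians of 0.06 in females and -0.29 in males. Cox5a, a subunit of cytochrome c oxidase, was the first of the 11, with 60.0, 83.7 and 98.2 CPM in stressed females, against 60.2, 82.2 and 110 CPM in control females, and 61.6, 73.4 and 82.5 CPM in stressed males, against 69.5, 93.1 and 113 CPM in control males. All 9 stressed males and 4 of 9 stressed females lay below the control median, and the averaged effect of -0.18 ± 0.073 was -0.04 ± 0.10 in females and -0.31 ± 0.10 in males. The complex I subunits Ndufc1 (-0.24 ± 0.099) and Ndufb6 (-0.16 ± 0.072), the ATP synthase subunit Atp5k (-0.28 ± 0.15) and the ribosomal protein Rps20 (-0.18 ± 0.12, and -0.089 without FC6) had the same pattern of a small value in females and a larger one in males. In females the effects of Cox5a and these genes were positive in libraries numbered up to 5 and negative in those from 6. Atp5k had 0.26 and -0.54 in females, against -0.56 and -0.57 in males. The averaged list medians were 0.012 up to 5 and -0.29 from 6 for ribosomal proteins. For oxidative phosphorylation they were -0.0028 and -0.26. Stress effects were related to transcript length, with a Spearman correlation of -0.29 in females, 0.48 in males and 0.27 for the average, over 16036 genes from the same libraries. The part of transcript length in these lists was not tested.

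Other process lists were mixed. Of 22 cholesterol genes 8 were positive in both sexes and 4 negative. Lanosterol synthase (Lss) had 41.8, 46.0 and 51.0 CPM in stressed females, against 36.9, 41.5 and 51.5 CPM in control females, and 43.1, 47.4 and 52.0 CPM in stressed males, against 33.4, 43.2 and 52.7 CPM in control males. All 9 stressed females and 8 of 9 stressed males exceeded the control median, with 0.13 ± 0.073 in females, 0.13 ± 0.073 in males and 0.13 ± 0.051 averaged (unadjusted p = 0.0155), while the sterol dehydrogenase Nsdhl had -0.11 ± 0.057. Of 25 heat shock and chaperone genes 4 were positive and 9 negative, led by the co-chaperone Dnajb5 (-0.17 ± 0.10). Of 19 genes of oxidative stress and metallothioneins 2 were positive and 2 negative, led by sulfiredoxin (Srxn1, -0.13 ± 0.069). The cold-inducible gene Rbm3 had 0.17 ± 0.12.

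Of 23 interferon and antigen-presentation genes 7 were positive in both sexes and 7 negative, with the interferon response factor Irf9 at -0.14 ± 0.068 and the class II gene H2-Aa at 0.66 ± 0.37. Inflammatory genes had 4 positive and 2 negative of 14, among them the adhesion molecule Vcam1 at 0.18 ± 0.095. Collagens and matrix genes had 5 positive and 0 negative of 28, led by the protease Mmp2 (0.18 ± 0.12).

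**Figure D3:**
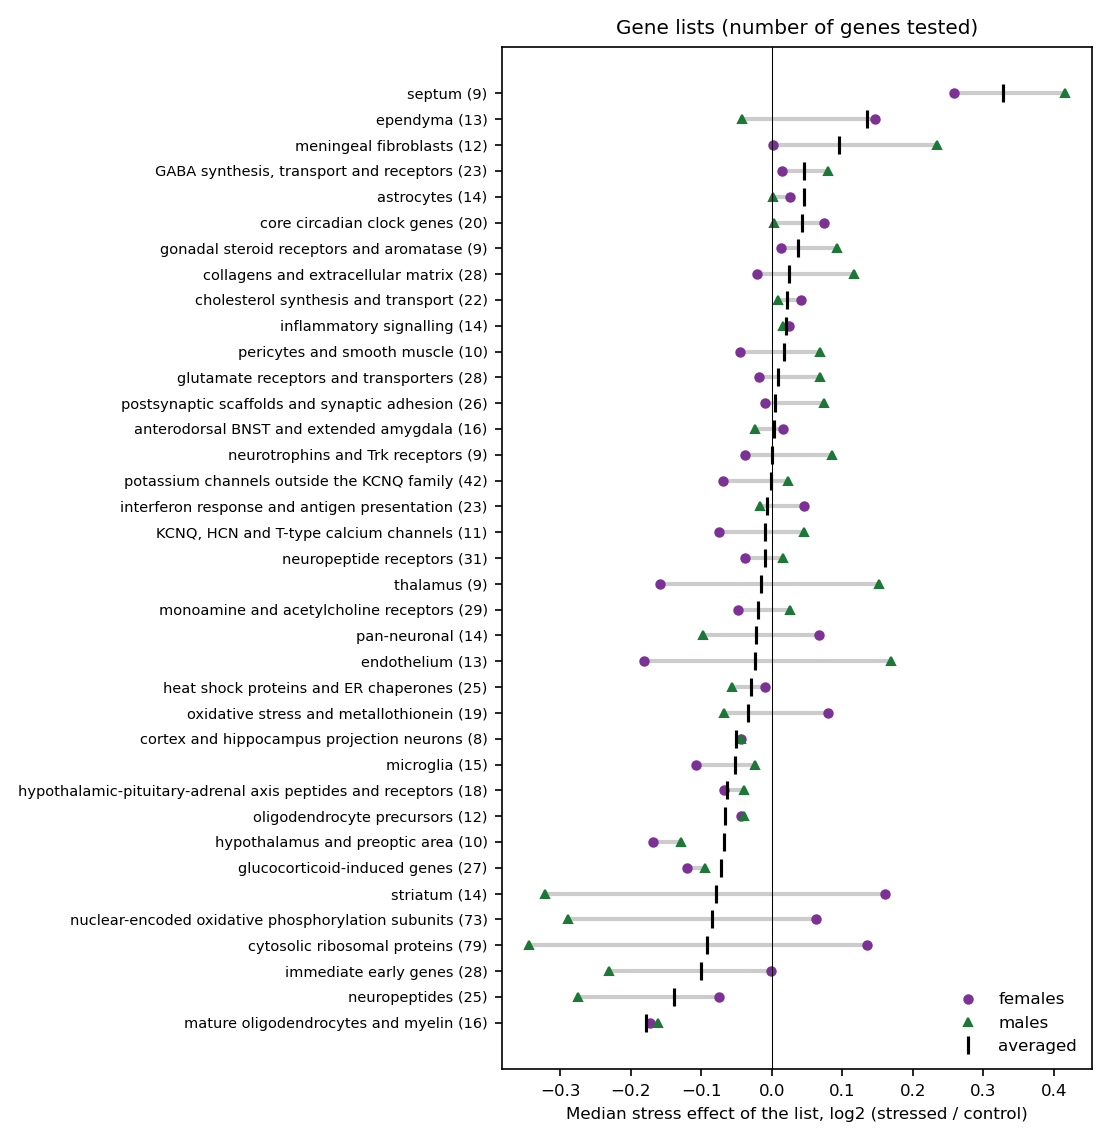
Median stress effect of 37 gene lists (x axis, log2 of stressed over control), with circles for females, triangles for males and bars for the averaged effect, and the number of genes tested in brackets. Lists with under 5 tested genes are left out, and so is the choroid plexus list, whose median averaged effect was 0.78. Septal markers lie at 0.26 in females and 0.42 in males and myelin markers at -0.17 and -0.16, while ribosomal proteins, oxidative phosphorylation and striatal markers span 0 between the sexes.

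Among lists with at least 5 tested genes, markers of the septum (88.9%) and of myelin (87.5%) had the highest shares of members with a common direction. In whole-tissue RNA of microdissections, fewer cells of a type, less RNA per cell and a different extent of the dissection cannot be told apart. Markers of mature oligodendrocytes and myelin had 0 members positive in both sexes, 14 negative and 2 opposite, with a median averaged effect of -0.18 (-0.083 without MC3 and -0.042 with 2 surrogate variables, and -0.095 in libraries numbered up to 5 against -0.48 in those from 6). Their sum had a lowest, median and highest value of 5082, 9768 and 27680 CPM in stressed females, against 5165, 12350 and 25400 CPM in control females. In stressed males it was 5311, 11050 and 17300 CPM, against 5079, 12400 and 23470 CPM in control males. The medians were lower under stress in both sexes, but the ranges ran over several-fold and overlapped almost fully. Trf, which encodes transferrin, had the smallest p of the list, with an averaged effect of -0.29 ± 0.15 (unadjusted p = 0.0613).

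Septal markers had 8 members positive in both sexes, 0 negative and 1 opposite, with a median of 0.33. Zic1, a zinc-finger transcription factor of septal neurons on chromosome 9 (chr9:91358058-91365768), had 16.8, 27.4 and 88.6 CPM in stressed females, against 14.1, 31.0 and 52.1 CPM in control females. In stressed males it had 28.3, 56.4 and 73.2 CPM, against 11.7, 28.0 and 56.6 CPM in control males. All 9 stressed males exceeded the control median, while the median of stressed females was below that of control females. The averaged effect was 0.49 ± 0.21 (unadjusted p = 0.0238). Zic2 had 0.37 ± 0.17, Zic4 0.45 ± 0.24 and Prdm16, a transcription factor of forebrain progenitors, 0.33 ± 0.12. For the list as a whole, libraries with numbers up to 5 gave a median of -0.0044 and those from 6 gave 0.58. The summed level of the 9 markers had a median of 346.6 CPM in stressed females, 354.0 in control females, 383.5 in stressed males and 383.0 in control males. The part of septal tissue in the averaged effects of Sp8, Sox1 and other genes was not tested.

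Choroid plexus markers had 7 members positive in both sexes, 0 negative and 5 opposite, and 10 of 12 had an unadjusted p under 0.05. The list's median of 0.78 became 0.10 without MS5. The coagulation factor gene F5 had 1.23 ± 0.44 with all libraries and 0.14 ± 0.28 without MS5, and the channel subunit Kcne2 had 1.03 ± 0.42 and 0.07 ± 0.27. Otx2, a homeobox gene of the choroid plexus and other regions, had 0.58 ± 0.24 with 5 of 9 stressed females and 8 of 9 stressed males above the control median. Meningeal fibroblast markers, with 5 positive and 2 negative of 12, had the transporter Slc13a4 first, at 0.52 ± 0.31 and at 0.17 ± 0.27 without MS5.

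The other lists leaned less to one side. Microglial markers had 2 positive and 6 negative of 15, with the complement gene C1qb at -0.26 ± 0.14 (-0.16 without MC3), the adaptor Tyrobp at -0.21 ± 0.12 (-0.12 without FC6) and the transcription factor Sall1 at 0.11 ± 0.064. Oligodendrocyte precursors had 0 positive and 5 negative of 12, led by the sialidase gene Neu4 (-0.13 ± 0.073). Astrocyte markers had 4 positive and 2 negative of 14, Sox9 among them, and pan-neuronal markers 1 and 4 of 14, with the neurofilament genes Nefl (-0.12 ± 0.059) and Nefm (-0.22 ± 0.13).

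Vascular lists held the endothelial antigen Ly6c1 (-0.17 ± 0.084), 1 of 2 negative members of 13, and the pericyte receptor Pdgfrb (0.11 ± 0.085), 1 of 3 positive members of 10. Ependymal markers had 6 positive and 2 negative of 13, led by Hydin, a gene of motile cilia (0.30 ± 0.38, and 0.11 without FS7). Striatal markers had opposite signs in 13 of 14, with Pde10a as the 1 member of common direction (-0.06 ± 0.20). Of 8 projection-neuron markers of cortex and hippocampus 1 was negative and 1 positive, Fezf2 (0.43 ± 0.18), with 0.76 ± 0.26 in females and 0.10 ± 0.26 in males. Hypothalamic and preoptic markers had 0 positive and 5 negative of 10, Gal among them, and thalamic markers 2 positive and 0 negative of 9, led by Lef1 (0.14 ± 0.11). The 16 markers of the extended amygdala itself had 5 positive, 3 negative and 8 opposite, with a median of 0.0036. The only tested blood marker, Alas2, had -0.19 ± 0.15.

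The labels number the libraries of each group without saying what the numbers stand for, and the effect common to the sexes was not stable between low and high numbers. Among the 20 libraries numbered up to 5, 33.1% of genes had the same direction in both sexes, and among the 18 numbered from 6 it was 61.6%. The averaged effects in these 2 sets, which share no library, had a Pearson r of -0.02 and a Spearman correlation of -0.11 over 16309 genes. All 4 effects, of each sex in each set, had the same sign in 1221 genes (7.49%), of which 552 were positive and 669 negative. Among the 20 genes with the smallest p, 14 had the same sign in all 4 and 20 kept the averaged sign in both sets, but these sets are the libraries that chose them. The sets also differed in the share of counts from the ribosomal RNA gene Rn45s. This share was 0.754% (MS7) to 4.81% (FC6) in libraries numbered from 6. Up to 5 it was 0.121% (MC1) to 0.311% (MC2), with higher values only in FC1 (1.09%), FS1 (1.47%), FS2 (2.14%), MC3 (2.17%) and MS5 (1.28%). The part of this difference in the stress effects was not tested.

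**Figure D4:**
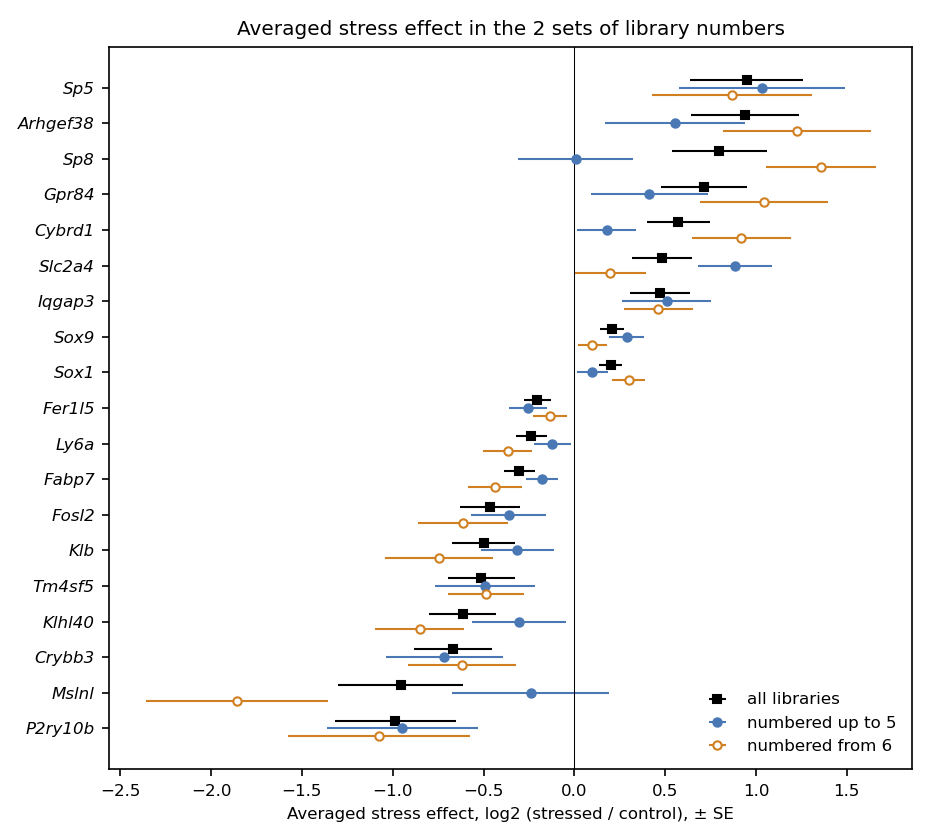
Averaged stress effect (x axis, log2 of stressed over control, with standard errors) of 19 of the 20 genes with the smallest p, in all libraries (squares), in those numbered up to 5 (filled circles) and in those from 6 (open circles); Ttr is left out. P2ry10b has -0.95 and -1.08 and Iqgap3 0.51 and 0.46 in the sets of low and high numbers, while Sp8 has 0.01 and 1.36 and Mslnl has -0.24 and -1.86. For males alone, which are not plotted, Iqgap3 has 0.42 and -0.23.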

How the data were processed

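RNA from adBNST microdissections was enriched by poly-A tail and made into stranded libraries, per the labels' protocols. The deposited table held raw counts per gene symbol, and per the submitters' processing notes the authors used STAR, featureCounts and DESeq2 with mm10. Versions, annotation and the strand setting of the counting were not given in the sources used here, so overlapping and near-identical genes, such as ribosomal protein genes, are less certain. Of 25230 genes, filterByExpr by group left 16309. CPM were computed here from the counts on TMM-scaled library totals. EdgeR 4.0.16 (R 4.3.3) fitted a mean for each of the 4 groups with its quasi-likelihood test, which is the sex, condition and interaction model that the series describes. Contrasts were the stress effect in each sex, their mean and their difference. Adjustment was by Benjamini-Hochberg over 16309 genes, with a threshold of 0.05. Scripts were tested on simulated data. Coordinates came from RefSeq on GRCm38.p6 by symbol (16194 tested genes matched). Transcript lengths came from GENCODE M21.

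Named genes were the 10 per direction with the smallest p and the same sign in both sexes, passing over unnamed gene models and sex-linked genes, those with an unadjusted p under 0.05 in each sex, up to 4 members of each of 40 lists and a panel of stress and channel genes; some of these genes are not reported here. The limit of 0.1 on the p of list members was chosen after seeing their values. The comparison, the genes and the lists were chosen with earlier results of these data known. Alternatives were DESeq2 1.42.0 and its size factors, no filter, limma 3.58.1 voom, surrogate variables (sva 3.50.0), terms for the library numbers, subsets of libraries, and leaving out each library. Within each group the closest libraries differed by a chi-square per gene of at least 8.19, so none was treated as a copy.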

Additional observations from a re-analysis of the deposited data

Results flagged for a closer look

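Among the genes with the smallest p, those with a p under 0.05 in each sex and the panel, 10 of 116 gene-by-group sets of libraries (8.62%) had a highest or lowest library far from its neighbours by Dixon's criterion. For normally distributed values, chance meets it in about 1 of 20 sets. The CPM were not transformed, and genes outside the panel were chosen by their p, so 8.62% cannot be compared with that rate. In stressed females the flagged sets were P2ry10b in FS5 (0.762 CPM, next 0.287), Crhr1 in FS8 (15.3 CPM, next 9.42) and Fos in FS6 (56.4 CPM, next 25.7). In control females they were Cybrd1 in FC6 (0.449 CPM, next 1.37), Fabp7 in FC6 (44.0 CPM, next 33.9) and Crh in FC8 (39.3 CPM, next 27.0). In stressed males they were Ttr in MS5 (2878 CPM, next 41.1) and Sox1 in MS8 (38.3 CPM, next 48.1). In control males they were Ttr in MC9 (27.5 CPM, next 11.3) and 1110032F04Rik in MC5 (7.25 CPM, next 5.50). FC6 appears for 2 genes and is one of the libraries with high myelin transcripts, and whether these are related was not tested.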

How the results depend on the processing

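The count of genes passing for the averaged effect was 0 under every alternative, with the smallest adjusted p between 0.651 and 1. The count of genes with the same direction (6060) was 10054 in libraries numbered from 6, and lay between 4830 (without FC6) and 8538 (without FS2) when single libraries were left out. The count with an unadjusted p under 0.05 in each sex and the same direction (4) was 41 with no filter (27 opposite), 7 by DESeq2 (14 opposite), 22 by voom (29 opposite), 16 in libraries numbered from 6 (4 opposite), 11 in those up to 5 (18 opposite) and 16 with 2 surrogate variables (77 opposite). It lay between 1 and 6 when single libraries were left out, with 1 without FS7 and 2 without FS9, FC1, FC4, FC7 or MS6. In the 38 refits without a single library Klhl40 met it in 33, 1110032F04Rik in 29, Fabp7 in 26 and Sp8 in 22. The replicate number as a block gave 12 such genes (22 opposite), 3 of the 4 among them. Deviations of same-numbered stressed and control libraries correlated between -0.357 and 0.671 over 18 pairs, 13 above 0.1, and 2 had their own number as the best, so the numbers were not taken as pairs. The averaged sign turned in libraries up to 5 for Crh (0.14), Nr3c1 (-0.0043), Fkbp5 (0.091), Npy (0.21), Grin2c (0.018), Pdyn (0.0053), Zic1 (-0.064), Zic2 (-0.036) and Zic4 (-0.0084), in those from 6 for Kcnq5 (-0.079) and Kcne2 (-0.078), with surrogate variables for Npy (0.080) and Kcnq3 (0.0028), and by voom for Pde10a (0.013). Without single libraries it turned for Kcnq3 (-0.056 to 0.051), Npy (-0.15 to 0.091) and Pde10a (-0.11 to 0.058). The causes were not tested. All other named genes kept their sign under these alternatives. Without single libraries the list medians stayed between 0.25 and 0.36 for septal markers, -0.17 and -0.11 for neuropeptides and -0.14 and -0.071 for immediate early genes, but crossed 0 for other potassium channels (-0.028 to 0.019), pan-neuronal (-0.075 to 0.022), endothelial (-0.048 to 0.014) and thalamic markers (-0.077 to 0.057) and gonadal steroid genes (-0.0072 to 0.080), among others. Depth limits rare genes most: at under 1 CPM the shallowest library had fewer than 10 counts.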
